A study of Homo sapiens with 6 samples.

Results

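Long intergenic noncoding RNAs (lincRNAs) are transcripts without a known protein product whose genes lie between protein-coding genes. The 120 lincRNA genes described here were those typed lincRNA in the gene table whose mean over the 6 libraries was at least 5 CPM (counts-per-million, the count scaled to the summed gene counts of its library), without NEAT1, MALAT1, DANCR and the SNHG family. They were 120 of 7358 lincRNA genes and of 58302 genes in all. RNA sequencing had been done on MDA-MB-231-DR, the doxorubicin-resistant derivative of MDA-MB-231, an established triple-negative breast line, with 3 control libraries and 3 libraries after cyperotundone (CYT), a sesquiterpenoid of nutgrass. The study used CYT to ask how drug-resistant breast cancer cells respond to it. All libraries, controls included, came from this 1 resistant line, which the methods say was kept in a low dose of doxorubicin. The sources used here give no dose or time of CYT for these libraries and mention 3 independent experiments only as a general statement on all of the data. Whether the 3 libraries of a group came from separate cultures is thus not given, and p-values measure only the spread between these samples, which may be technical.

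LincRNAs do not work as one family. Some act as RNA scaffolds or as decoys for proteins in the cytoplasm or nucleus, some carry microRNAs in their introns or exons, and many are made from the same promoter region as a protein-coding gene but read in the opposite direction. Such divergent transcripts are often short, unspliced and quickly removed by the nuclear RNA exosome, whereas spliced lincRNAs tend to last longer. In breast cancer lines, lincRNAs such as CYTOR, PVT1 and CRNDE have been studied for effects on growth, and NORAD is known for a role in genome stability.

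The libraries held 13056270 to 17770102 counts, and genes with at least 10 counts numbered 14619 to 15083 in control and 15773 to 16075 in CYT libraries. Mitochondrial ribosomal RNA took 0.148 to 0.221% of counts in control and 1.56 to 1.74% in CYT libraries, and the part of this difference in the results that follow was not tested. Of 8 markers of mesenchymal triple-negative lines, 6 were over 100 CPM in every library (summed level 5.1e+03 to 6.59e+03 CPM in control, 3.14e+03 to 3.93e+03 after CYT). The summed level of 8 luminal markers was 13.5 to 17.6 CPM in control and 15.2 to 22.2 CPM after CYT, and those of 4 immune markers (6.47 to 23.4 and 4.27 to 14.9 CPM), 4 fibroblast markers (19.1 to 35.8 and 3.91 to 6.35 CPM) and 3 endothelial markers (1.55 to 3.31 and 1.83 to 3.5 CPM) were also low, with CD3E and DCN at 0 in every library. In the fibroblast list, COL1A1 (mean of 15 CPM in control and 3.36 after CYT) and PDGFRB (11.1 and 1.91) fell, in libraries that all came from the same cell line. In bulk libraries, fewer cells expressing a gene and less RNA per cell cannot be told apart. The libraries numbered 2 deviated together. Of the 120 lincRNAs, 27 were highest and 28 lowest in replicate 2 of both groups, whereas 12 were highest in control 2 and lowest in CYT 2, and 6 the reverse. CYT 2 was the lowest CYT library for 60 and the highest for 45. How reads matching several genes, or both strands, were counted is not given in the sources used here. Therefore values of genes that overlap another gene or have a near-identical copy are uncertain.

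The layout of divergent pairs recurs among the lincRNAs with the largest rises, and 4 RefSeq windows of 300 bases (250 before and 50 after an annotated start, build GRCh38.p14) are shown for that reason. The first 3 are windows of a protein-coding gene, read on its strand, and capitals mark the bases that lie in the annotated span of the lincRNA on the other strand. They belong to AP001527.2 beside YAP1 (chr11:102110197-102110496, plus strand), AL358472.2 beside JTB (chr1:153977625-153977924, minus strand) and AC010864.1 beside CSGALNACT2 (chr10:43138195-43138494, plus strand).
AP001527.2 and YAP1: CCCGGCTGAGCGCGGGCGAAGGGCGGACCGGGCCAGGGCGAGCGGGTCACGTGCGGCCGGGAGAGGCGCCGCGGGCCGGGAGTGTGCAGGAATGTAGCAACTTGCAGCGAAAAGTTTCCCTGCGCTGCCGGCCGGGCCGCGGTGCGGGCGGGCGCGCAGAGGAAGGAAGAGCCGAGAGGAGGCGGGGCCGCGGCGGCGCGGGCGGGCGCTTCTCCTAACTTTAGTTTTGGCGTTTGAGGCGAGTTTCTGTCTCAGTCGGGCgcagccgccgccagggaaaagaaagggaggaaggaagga
AL358472.2 and JTB: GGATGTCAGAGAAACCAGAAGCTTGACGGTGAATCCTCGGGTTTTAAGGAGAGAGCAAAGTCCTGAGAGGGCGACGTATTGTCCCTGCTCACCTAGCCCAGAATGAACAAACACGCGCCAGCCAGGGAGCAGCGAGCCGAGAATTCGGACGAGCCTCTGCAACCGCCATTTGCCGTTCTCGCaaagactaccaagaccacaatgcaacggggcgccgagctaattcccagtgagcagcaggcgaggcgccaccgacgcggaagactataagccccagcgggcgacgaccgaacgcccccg
AC010864.1 and CSGALNACT2: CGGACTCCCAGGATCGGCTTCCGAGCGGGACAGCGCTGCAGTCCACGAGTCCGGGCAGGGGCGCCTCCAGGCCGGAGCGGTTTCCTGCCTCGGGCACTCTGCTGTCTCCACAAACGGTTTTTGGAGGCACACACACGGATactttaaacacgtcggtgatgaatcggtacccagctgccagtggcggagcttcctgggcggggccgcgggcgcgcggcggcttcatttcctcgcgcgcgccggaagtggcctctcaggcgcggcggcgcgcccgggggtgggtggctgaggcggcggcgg
The fourth is the window of MANCR itself (chr10:4678021-4678320, minus strand), the lincRNA with the largest fall, with the bases of its annotated span in capitals. It serves as a contrast because it has no divergent protein-coding partner.
MANCR: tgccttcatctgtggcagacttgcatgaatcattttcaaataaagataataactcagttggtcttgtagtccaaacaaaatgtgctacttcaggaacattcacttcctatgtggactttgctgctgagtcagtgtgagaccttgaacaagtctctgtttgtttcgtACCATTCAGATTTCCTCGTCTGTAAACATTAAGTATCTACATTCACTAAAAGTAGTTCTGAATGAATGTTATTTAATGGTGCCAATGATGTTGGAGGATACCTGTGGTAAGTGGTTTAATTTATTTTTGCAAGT
The capitals took up 261, 182, 140 and 134 of the 300 bases. The first 3 windows held 40, 27 and 38 CG dinucleotides, and that of MANCR held 2. A RefSeq window under their own symbol and within 2 kb of the annotated start was found for 44 of the 120 lincRNAs, with a median of 22.5 CG dinucleotides against 14 over all 35116 RefSeq windows. Searched on both strands, GGGCGG was present in 56.8% of the 44 windows and in 45% of all windows, CCAAT in 40.9% and 34.6%, and TATAAA in 9.09% and 11.5%. These are letter matches and not evidence of binding.

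After CYT, 53 of the 120 lincRNAs rose (44.2%), 5 fell (4.17%) and 62 did not pass the test. A call required an adjusted p under 0.05 (edgeR quasi-likelihood test, Benjamini-Hochberg over 15572 genes) and an absolute log2 fold change over 1. Over all tested genes, 15.2% rose and 12.2% fell by the same criteria. The median log2 fold change was 0.93 for the lincRNAs and 0.01 for all tested genes, and it was -0.12 for protein-coding genes at the same minimum of 5 CPM. The 120 lincRNAs were not alone in this, since of 185 antisense genes at the same minimum 54.1% rose, with a median of 1.39. Of 433 tested lincRNAs under that minimum, 43.2% rose and 6.24% fell, with a median of 1.38. The antisense genes were chosen by the same mean over both groups, and their values with the minimum in control are not given. In 68 lincRNAs every CYT library was above every control library, and in 11 every CYT library was below, whereas 23.4% and 22.7% of all tested genes did so. Leaving out each library in turn, 40 (without control 3) to 52 (without CYT 2) rose. The count of 5 falls dropped to 2 without CYT 1 or CYT 3 and to 3 without control 1 or control 2. The median log2 fold change was 0.81 without CYT 2 and 0.75 without control 1.

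**Figure D1:**
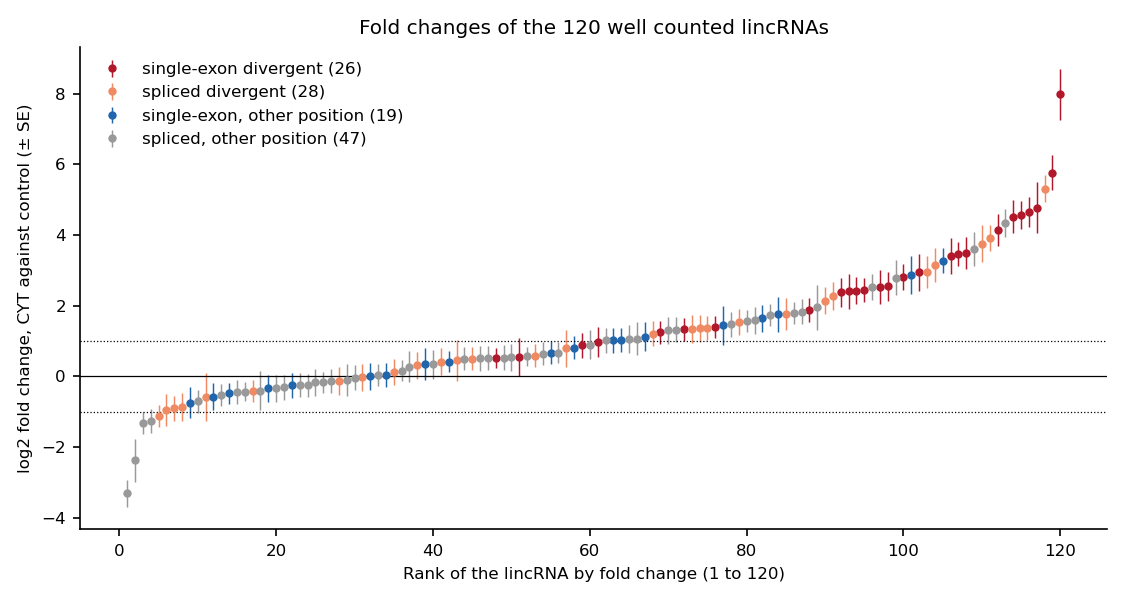
The log2 fold change (CYT against control) of each of the 120 lincRNAs with its SE, ordered by rank and coloured by annotated structure and position. Dotted lines mark values of 1 and -1, and single-exon divergent lincRNAs hold most of the top ranks, up to 7.98, whereas MANCR lies lowest at -3.31.

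The minimum was set on the mean over both groups, which shapes these counts. A lincRNA that was under 5 CPM in control entered only through its CYT libraries and had to differ. There were 46 such lincRNAs, of which 40 rose. In the same way 4 lincRNAs under 5 CPM after CYT entered only through control. They were MANCR, which fell, and GLIDR, AC008915.2 and AL355338.1, which did not pass (log2 fold changes -0.31, -0.87 and -0.95). Among the 74 that reached 5 CPM in control as well, 13 rose (17.6%), 5 fell (6.76%) and the median log2 fold change was 0.29. That share of rises was near the 15.2% of all tested genes, whereas 9.68% of protein-coding genes at a mean of 5 CPM over both groups rose. Neither of these sets had the minimum in control, so the shares are not matched. The share of falls is not read against all genes, because the minimum on the mean over both groups removes lincRNAs that fell from little over 5 CPM. Of the 70 at 5 CPM in both groups, 13 rose, 4 fell and the median was 0.34. When the minimum was applied to the control libraries alone, 89 lincRNAs qualified, of which 13 rose and 11 fell, and the median was -0.04. Conversely, 159 qualified on the CYT libraries alone, of which 87 rose, with a median of 1.38. Most of the rises, 40 of 53, were thus in lincRNAs under 5 CPM in control. The 3 members nearest the minimum were AL035446.1, FAM111A-DT and GLIDR at means of 5.15, 5.13 and 5.09 CPM, and just outside were AC004233.3, AC090409.1 and FOXD2-AS1 at 4.997, 4.98 and 4.88 CPM.

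The 120 lincRNAs together took 0.128, 0.152 and 0.143% of counts in the control libraries and 0.24, 0.264 and 0.233% in the CYT libraries. The groups did not overlap, and the mean went from 0.141 ± 0.0118% to 0.246 ± 0.0163% (SD, n = 3 each), a ratio of 1.75. No test is given, because the choice of members used the same values and 46 of them entered only through CYT. For the 74 lincRNAs at 5 CPM in control the mean share was 0.13 ± 0.0104% and 0.181 ± 0.0163%, a ratio of 1.4.

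By GENCODE release 29, in which all 120 gene identifiers were found, 54 of the 120 had a divergent protein-coding partner, defined as a coding gene on the opposite strand with its start within 2 kb. Of these 54, 35 rose and 1 fell (median log2 fold change 1.65). Of the 46 lying apart from coding genes, 9 rose and 3 fell (median 0.46). Of 16 overlapping a coding gene in another arrangement, 7 rose and 1 fell, and of 4 starting within 5 kb downstream of a coding gene on the same strand, 2 rose. These counts follow the choice of members, since 31 of the 54 divergent lincRNAs but 8 of the 46 apart were under 5 CPM in control and entered only through CYT. With 5 CPM in control, 6 of 23 divergent lincRNAs rose and 1 fell (median 0.50), and 5 of 38 apart rose and 3 fell (median 0.10), so no difference between positions is read from the counts over all 120.

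Exon number split the divergent lincRNAs further, in a division chosen after the values were seen. Of 26 divergent lincRNAs annotated with a single exon, 22 rose, with a median log2 fold change of 2.54 and a range of 0.52 to 7.98. None fell by edgeR, at an unadjusted p under 0.05 or by DESeq2 (0 in each case), since all 26 had a value above 0. Of 28 spliced divergent lincRNAs, 13 rose and 1 fell (median 0.69). Of 19 single-exon lincRNAs in other positions, 5 rose and 0 fell (0 also at an unadjusted p under 0.05 by edgeR and 0 by DESeq2), with a median of 0.67. Of 47 spliced lincRNAs in other positions, 13 rose and 4 fell, with a median of 0.51. Most single-exon divergent lincRNAs were under 5 CPM in control, and for the 5 that were not, 2 rose and the median was 0.88. The corresponding 18 spliced divergent lincRNAs gave 4 rises (22.2%), 1 fall and a median of 0.22. In other positions, 1 of 13 single-exon lincRNAs at 5 CPM in control rose (median 0.04), and 6 of 38 spliced ones rose (15.8%) and 4 fell (median 0.10). At that minimum the spliced divergent lincRNAs were thus close to the other spliced ones, and the classes hold too few lincRNAs to set the single-exon ones apart.

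**Figure D2:**
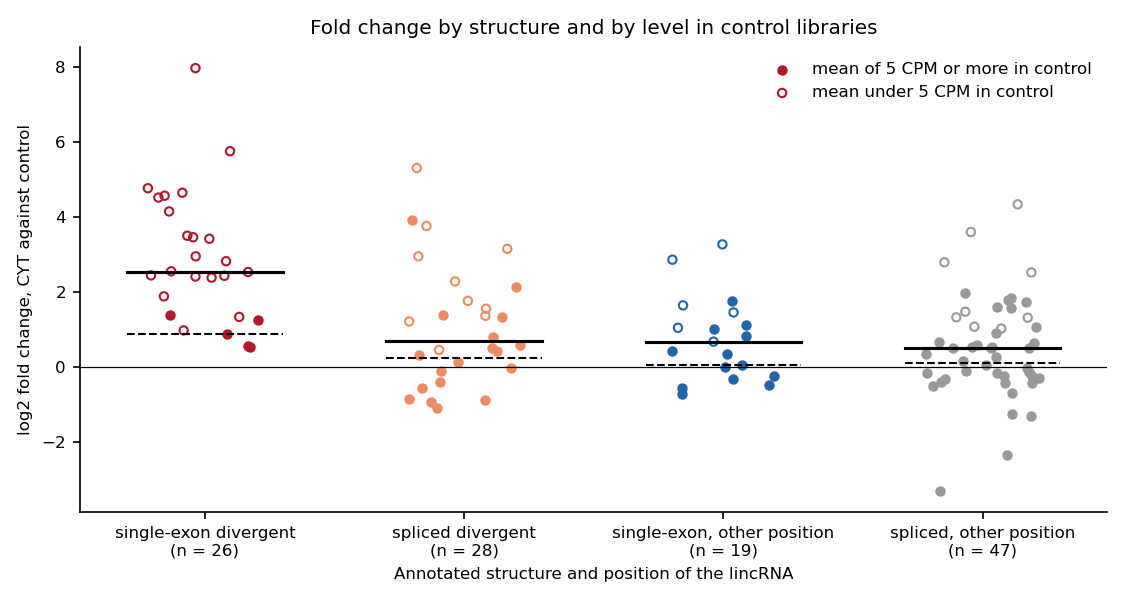
The log2 fold change of each lincRNA, grouped by annotated structure and position. Filled points had a mean of at least 5 CPM in control and open points did not, solid bars are medians of all points and dashed bars medians of the filled points, and nearly all large rises are open points.

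The largest rise was in AC104109.2 (ENSG00000270177), a single-exon lincRNA of 1418 bases (chr5:134226410-134227827, plus strand) starting 268 bp from PPP2CA, the catalytic subunit of protein phosphatase 2A. It had 2, 0 and 0 counts in the control libraries and 152, 189 and 167 in the CYT libraries. It was near absent from all control libraries and present in all CYT libraries. Relative to the library totals the ratio of summed counts was 308 (95% exact interval 84.8 to 2.55e+03, counting error only). The edgeR log2 fold change of 7.98 ± 0.72 (SE, adjusted p = 0.00033) depends on the prior count at such low control values. It was 10.51 without control 1, the only control library with counts of this lincRNA, so the SE does not cover this uncertainty. PPP2CA itself stood at 191, 306 and 227 normalised CPM in control and 227, 342 and 217 after CYT, with a log2 fold change of 0.12 ± 0.31 (edgeR adjusted p = 0.806).

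AC087623.2, whose start lies 92 bp from that of the histone methyltransferase gene NSD3, had 0.558, 0.319 and 0.288 normalised CPM in control and 23.8, 13 and 27.7 after CYT. Each CYT library exceeded every control library (log2 fold change 5.76 ± 0.50 SE, edgeR adjusted p = 0.000326). NSD3 gave 0.43 ± 0.28 (adjusted p = 0.279 by edgeR). The spliced AC137767.1, which overlaps exons of its partner SBNO1, went from 1.43, 0.905 and 0.863 to 44, 36.7 and 47.5 CPM (log2 fold change 5.31 ± 0.38 SE, edgeR adjusted p = 0.000205). Its groups lay far apart, yet reads of the overlapping exons could belong to SBNO1, for which the log2 fold change was 0.64 ± 0.37 (adjusted p = 0.223).

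AP001527.2, the first of the sequences printed, starts 4 bp from YAP1, the coactivator of the Hippo pathway, by GENCODE. By the RefSeq start of YAP1, which the printed window uses, the lincRNA start lies 10 bp inside YAP1, so reads at that edge could belong to either gene. Its values were 0.434, 0.16 and 0.935 CPM in control and 11.4, 5.91 and 23.6 after CYT. The CYT libraries were uneven but all above control (log2 fold change 4.77 ± 0.72 SE, edgeR adjusted p = 0.00189). YAP1 stood at 48.2, 76.5 and 26.2 CPM in control and 64.6, 136 and 63.7 CPM after CYT, groups that overlapped (0.81 ± 0.45, adjusted p = 0.211).

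AC010864.1, beside the chondroitin sulfate enzyme gene CSGALNACT2, went from 0.372, 0.373 and 0.647 to 10.2, 11.8 and 13.1 CPM, and AL358472.2, beside JTB, from 0.744, 0.745 and 0.431 to 9.38, 19.6 and 16 CPM. Their log2 fold changes were 4.65 ± 0.43 and 4.52 ± 0.46 (SE), with edgeR adjusted p-values of 0.00033 and 0.000493. AL358472.2 also overlaps exons of the coding gene AL358472.6, so part of its reads could belong to that gene. Neither group pair overlapped, and neither coding partner passed the test (log2 fold changes -0.03 and 0.18). EPB41L4A-DT, transcribed away from the cytoskeletal gene EPB41L4A, went from 0.806, 0.799 and 1.22 to 20.2, 19.1 and 27.9 CPM (4.57 ± 0.40, adjusted p = 0.000326). AC091271.1 overlaps the start of CLTC, the clathrin heavy chain gene, by 25 bp and went from 0.434, 1.06 and 0.719 to 10.3, 14.1 and 15.8 CPM (4.15 ± 0.45, adjusted p = 0.00055). For both, all CYT libraries exceeded all control libraries.

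The 2 remaining rises among the 10 largest were spliced. LINC00324, which starts downstream of the telomere maintenance gene CTC1, went from 1.12, 0.852 and 0.863 to 15.6, 25.1 and 17.3 CPM (4.34 ± 0.39, edgeR adjusted p = 0.00033). OSER1-DT, the divergent transcript of the oxidative stress responsive gene OSER1, was the most abundant of the 10. It stood at 8.87, 6.55 and 11.2 CPM in control and 130, 106 and 165 CPM after CYT (3.91 ± 0.36, adjusted p = 0.00033), so its lowest CYT library was well above its highest control library. Its partner OSER1 stood at 55, 67.8 and 82.8 CPM in control and 135, 139 and 124 CPM after CYT. The partner passed the adjusted p but not the fold threshold (0.95 ± 0.28, adjusted p = 0.0323).

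**Figure D3:**
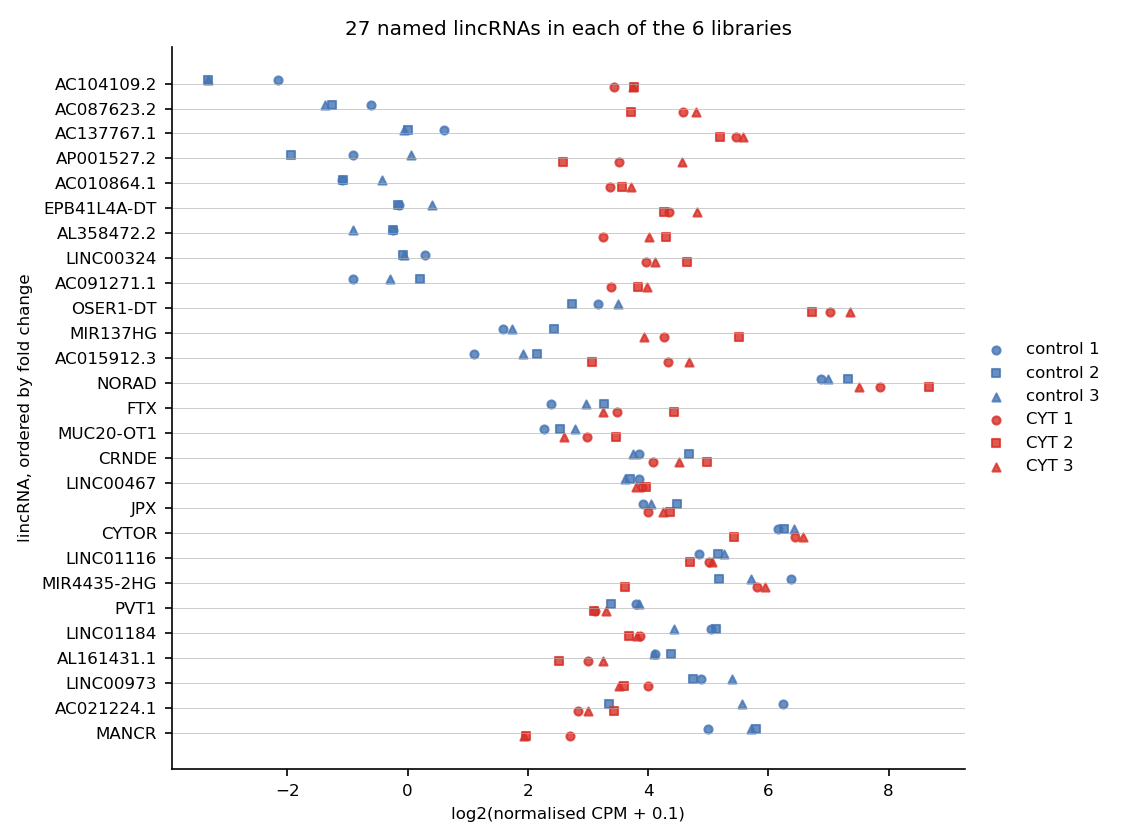
Normalised CPM of 27 lincRNAs in each library, as log2(CPM + 0.1), with rows ordered by fold change, control libraries in blue, CYT libraries in red and one marker shape per replicate number. The groups stand apart in the upper 10 rows, overlap in most rows from FTX down to PVT1, and are reversed in the lowest rows, except for AC021224.1, where control 2 lies among the CYT libraries.

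The 13 rises among the 74 lincRNAs that already reached 5 CPM in control (17.6%, against 15.2% of all tested genes) are named because the choice of members did not require them to differ. They were picked after their values were seen, and their share is near that of all tested genes. Of protein-coding genes at a mean of 5 CPM over both groups, 9.68% rose. Besides OSER1-DT they were APTR, EBLN3P, AC012313.1, LINC02001, AC006058.3, AC006504.5, ARLNC1, LINC00839, PAXIP1-AS1, SCAMP1-AS1, MAPKAPK5-AS1 and AC144652.1. APTR, a transcript divergent from RSBN1L, stood at 6.51, 7.08 and 8.77 CPM in control and 29.7, 47.6 and 21.5 CPM after CYT (log2 fold change 2.14 ± 0.38 SE, edgeR adjusted p = 0.00328). LINC02001 stood at 15.4, 25.5 and 19.5 CPM in control and 70.9, 62.5 and 75.8 CPM after CYT (1.79 ± 0.31, adjusted p = 0.00307). LINC00839 stood at 23.4, 15 and 23 CPM in control and 59.9, 53.3 and 69.8 CPM after CYT (1.58 ± 0.31, adjusted p = 0.00543). In all 3 the groups did not overlap. EBLN3P, derived from a viral element in the genome, varied more within groups (3.84, 28.6 and 15.9 CPM in control, 45.3, 100 and 43 CPM after CYT) and passed only narrowly (1.96 ± 0.64, adjusted p = 0.0454).

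Of the 5 lincRNAs that fell, MANCR had the largest change. MANCR (mitotically associated long noncoding RNA), studied in triple-negative breast cancer, is a spliced lincRNA apart from coding genes (chr10:4650185-4678154, minus strand). It stood at 31.7, 55.6 and 52.2 CPM in control and 6.42, 3.84 and 3.73 CPM after CYT. The groups were far apart, and the log2 fold change was -3.31 ± 0.39 (SE, edgeR adjusted p = 0.000748). Its mean after CYT was under 5 CPM, so it was a member only through its control libraries and had to differ.

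The other falls were smaller. LINC00973 stood at 29.3, 26.9 and 41.8 CPM in control and 15.9, 12 and 11.4 CPM after CYT (-1.32 ± 0.32, edgeR adjusted p = 0.0143). AL161431.1 stood at 17.2, 20.7 and 17 CPM in control and 7.9, 5.62 and 9.38 CPM after CYT (-1.26 ± 0.33, adjusted p = 0.0188). In both, all CYT libraries were below all control libraries. LINC01184, divergent from the ion cotransporter gene SLC12A2, stood at 32.8, 34.8 and 21.5 CPM in control and 14.5, 12.8 and 14 CPM after CYT (-1.11 ± 0.31, adjusted p = 0.0258). These 3 calls were lost on leaving out one of several libraries: adjusted p by edgeR became 0.0682 for LINC00973 without control 3 and 0.0614 without CYT 3, 0.0508 for AL161431.1 without control 2 and 0.0565 without CYT 1, and 0.0704 to 0.082 for LINC01184 without control 1, control 2, CYT 1 or CYT 3.

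The fifth fall, AC021224.1, did not separate the groups. It stood at 75.5, 10.1 and 47.2 CPM in control and 7.05, 10.7 and 7.87 CPM after CYT, so control 2 lay within the CYT range (-2.37 ± 0.61, edgeR adjusted p = 0.018). The call was lost without control 1 (adjusted p = 0.0702), CYT 1 (0.0578) or CYT 3 (0.0618). Moreover, 491 bases of its annotated transcript were 98.2% identical to HNRNPA1, an abundant splicing factor mRNA, so its reads cannot be assigned with certainty.

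Levels of different genes were compared per length, in FPKM (fragments per kilobase of transcript, scaled to library depth), as deposited. The median FPKM of the 120 lincRNAs was 2.33 in control and 5.38 after CYT. NORAD had the highest mean FPKM over the 6 libraries (38.9), and AC015912.3 (30.2), AC021224.1 (29.9) and OSER1-DT (24.5) were also high. Their order depended on the group. In control, AC021224.1 led at 49.6 ± 34.9 FPKM, followed by LINC00973 at 33.6 ± 8.12, NORAD at 25.3 ± 5.91 and MANCR at 20.8 ± 6.79 among the lincRNAs named here (SD, n = 3), and the spreads of all 4 overlapped with that of a neighbour in this order. After CYT, NORAD (52.6 ± 26.1), AC015912.3 (50.8 ± 22.6) and OSER1-DT (46.1 ± 6.97) led, and these 3 did not differ beyond their spread.

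NORAD (ENSG00000260032), a single-exon cytoplasmic RNA, held the most counts. It stood at 118, 161 and 127 CPM in control and 233, 407 and 183 CPM after CYT. Every CYT library was above every control library, with CYT 2 highest, and the log2 fold change of 1.02 ± 0.35 did not pass (edgeR adjusted p = 0.0547). Adjusted p was 0.0177 to 0.17 over the 14 other settings tried, and pairing libraries by replicate number gave 0.0177 with a log2 fold change of 0.95, under the fold threshold. As for identity elsewhere, 4614 bases of NORAD were 95.9% identical to a stretch in OVCH1-AS1, so part of its reads could be shared.

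AC015912.3, a short single-exon lincRNA of 348 bases beside the ubiquitin ligase gene TRIM25, stood at 2.05, 4.37 and 3.67 CPM in control and 20, 8.26 and 25.7 CPM after CYT. All CYT libraries exceeded control (log2 fold change 2.41 ± 0.49 SE, edgeR adjusted p = 0.00622), and TRIM25 gave -0.11 ± 0.28 (adjusted p = 0.799). AC015912.3 was under 5 CPM in control, so it entered only through its CYT libraries and had to differ.

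All 54 protein-coding partners were tested, of which 4 rose and 4 fell (7.41% each), with a median log2 fold change of 0.06. Of all protein-coding genes at a mean of 5 CPM, 9.68% rose and 14.6% fell, so the share of partners that rose was near that of coding genes and the share that fell was lower. Both rest on few genes, since leaving out each library gave 1 to 3 rises and 2 to 6 falls. Of the partners of the 35 divergent lincRNAs that rose, 1 rose, 1 fell and 33 did not pass. The rise was in KAZALD1 (23.4, 20.8 and 26.3 CPM in control, 104, 40.6 and 122 CPM after CYT, log2 fold change 1.92 ± 0.42 SE, edgeR adjusted p = 0.00836), beside AL133215.2 (3.50). The fall was in the phosphate transporter gene SLC20A1 (199, 259 and 203 CPM in control, 80.8, 92.1 and 76.5 CPM after CYT, -1.41 ± 0.28, adjusted p = 0.0054), beside FLJ42351, whose own log2 fold change was 3.76. Across the 54 pairs, Pearson's r between the log2 fold changes of lincRNA and partner was 0.08 and Spearman's rho 0.0334, given as a description across genes, which are not independent and come from the same 6 libraries. In 26 of 26 single-exon pairs and in 18 of 28 spliced pairs the value of the lincRNA was above that of its partner, but 21 and 10 of these lincRNAs were under 5 CPM in control and reached the minimum only through CYT. With the lincRNA at 5 CPM in control, this held in 5 of 5 single-exon and 8 of 18 spliced pairs. The starts lay a median of 267 bp apart, with 39 pairs whose starts do not overlap and 15 whose first parts do.

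**Figure D4:**
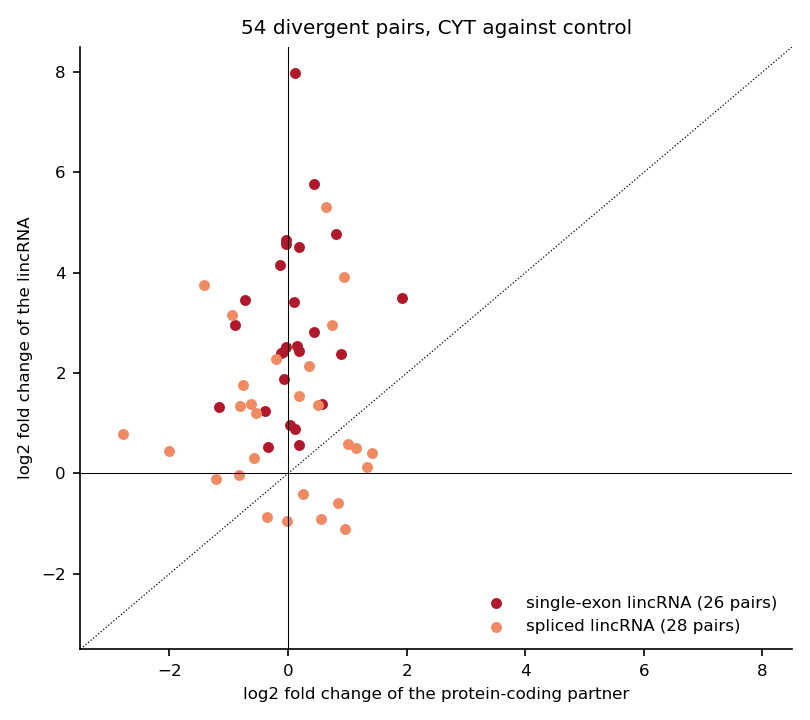
The log2 fold change of each divergent lincRNA against that of its protein-coding partner, for 26 single-exon and 28 spliced lincRNAs. Points above the dotted line of equality have a larger value in the lincRNA, and the partners stay within -2.78 to 1.92 whereas the lincRNAs reach 7.98.

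The counts of lincRNAs and partners were also summed by library. The 26 single-exon divergent lincRNAs had 3.35, 3.84 and 4.99 counts per 100 counts of their partners in control and 14.7, 12.9 and 16.3 after CYT. The groups did not overlap, with means of 4.06 ± 0.844 and 14.6 ± 1.71 (SD, n = 3 each), a ratio of 3.6. The 28 spliced divergent lincRNAs had 19.8, 15.7 and 17.6 counts per 100 partner counts in control and 44.2, 31.3 and 53 after CYT, a ratio of 2.42. Without OSER1-DT and its partner the spliced ratio was 1.96. Since 21 of the 26 single-exon and 10 of the 28 spliced lincRNAs reached the minimum only through CYT, the choice of members favoured the direction of these ratios, and no test is given. The 5 single-exon lincRNAs at 5 CPM in control had 7.6, 13.5 and 14.7 counts per 100 partner counts in control and 19.9, 25.3 and 20.9 after CYT, without overlap, a ratio of 1.84. The 18 spliced ones had 52.2, 43.5 and 43.5 in control and 59.1, 45.4 and 66.6 after CYT, groups that overlapped (ratio 1.23).

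**Figure D5:**
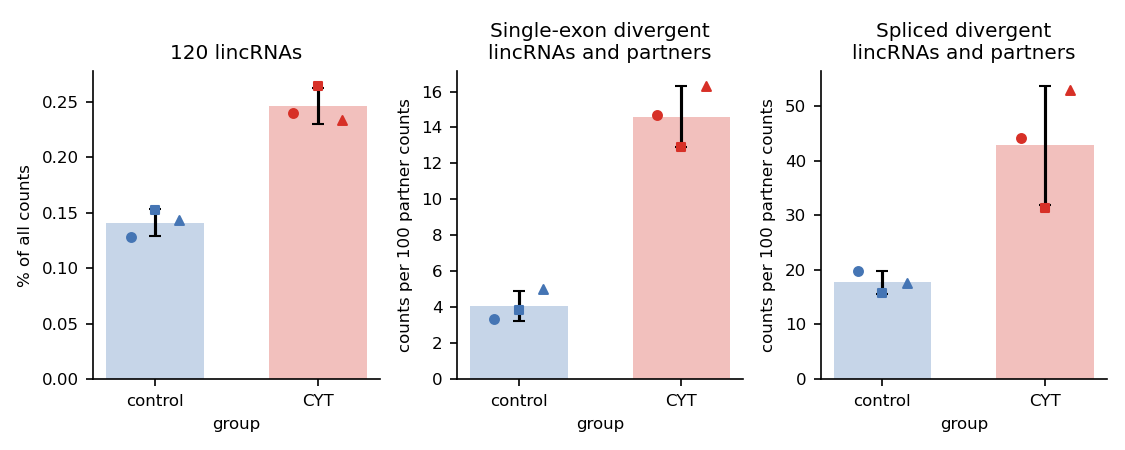
Per-library values (points, one shape per replicate number) with group mean and SD (bars) for the share of all counts in the 120 lincRNAs, and for counts of single-exon and of spliced divergent lincRNAs per 100 counts of their coding partners. In each panel the 3 CYT libraries lie above the 3 control libraries.

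The nuclear exosome and its partners remove many divergent transcripts, and the Integrator complex ends transcription of many noncoding RNAs. In a list of 45 genes of nuclear RNA decay and termination, 0 rose (1 at an unadjusted p under 0.05 by edgeR, 0 by DESeq2) and 11 fell (24.4%), with a median log2 fold change of -0.30. Of all protein-coding genes at a mean of 5 CPM, which every gene of the list reached, 14.6% fell. By DESeq2 8 of the 45 fell (17.8%), near the 15.9% of those coding genes by DESeq2. Those that fell by edgeR were the exosome subunit genes EXOSC3, EXOSC5, EXOSC6, EXOSC7, EXOSC8 and EXOSC10, the exosome cofactor genes MPHOSPH6 (-1.66, edgeR adjusted p = 0.00625) and C1D (-1.46), and the Integrator genes INTS3, INTS10 and INTS11. Of the genes for the adaptors that bring noncoding RNAs to the exosome, MTREX gave -0.05 ± 0.38 (adjusted p = 0.934) and ZFC3H1 0.81 ± 0.41 (adjusted p = 0.164). Their part in the lincRNA levels was not tested.

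Among lincRNAs that host microRNAs, 1 of 6 rose (16.7%, near the 15.2% of all tested genes). MIR137HG, the host of miR-137, a microRNA best known from neurons, stood at 2.91, 5.32 and 3.24 CPM in control and 19.2, 45.6 and 15.1 CPM after CYT. The groups did not overlap, with CYT 2 highest (log2 fold change 2.79 ± 0.50 SE, edgeR adjusted p = 0.00345). MIR137HG was under 5 CPM in control, so it was a member only through its CYT libraries and had to differ. The gene shares exonic sequence with DPYD in the annotation. The other hosts CYTOR, MIR4435-2HG, FTX, MUC20-OT1 and PVT1 did not pass. The mature products of MIR137HG and of the pair CYTOR and MIR4435-2HG are given from RefSeq GRCh38.p14, because those of MIR137HG belong to the host that rose and miR-4435 is annotated in both genes of the pair. In CYTOR it lies within the GENCODE span but beyond the end of the shorter locus given in the deposited table. Seeds (bases 2 to 8) are in capitals. The libraries did not measure mature microRNAs.
hsa-miR-137-3p: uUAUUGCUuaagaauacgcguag
hsa-miR-137-5p: aCGGGUAUucuuggguggauaau
hsa-miR-2682-5p: cAGGCAGUgacuguucagacguc
hsa-miR-2682-3p: cGCCUCUUcagcgcugucuucc
hsa-miR-4435: aUGGCCAGagcucacacagagg
The seeds differ, and the mature sequence of miR-4435 is the same at both loci.

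CYTOR and MIR4435-2HG, which share a stretch of 2254 bases at 99.2% identity, were among the 5 lincRNAs with the highest CPM. CYTOR (cytoskeleton regulator RNA) stood at 71.1, 76.2 and 85.6 CPM in control and 87.5, 43 and 95.8 CPM after CYT (-0.04 ± 0.35, edgeR adjusted p = 0.943). MIR4435-2HG stood at 83.5, 36 and 52.5 CPM in control and 56.1, 12.2 and 61.5 CPM after CYT (-0.41 ± 0.55, adjusted p = 0.618). In both, CYT 2 was the lowest library and the groups overlapped, and the sign of both values turned without CYT 2 (0.23 for CYTOR, 0.042 for MIR4435-2HG).

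Of 7 lincRNAs listed for growth or cancer, none passed (0 also at an unadjusted p under 0.05 by edgeR and 0 by DESeq2), with a median log2 fold change of 0.04. The list does not hold MANCR, which fell. PVT1, the neighbour of MYC, stood at 13.9, 10.4 and 14.3 CPM in control and 8.6, 8.47 and 9.77 CPM after CYT (-0.52 ± 0.31, edgeR adjusted p = 0.237). CRNDE, divergent from the homeobox gene IRX5, gave 0.41 ± 0.38 (adjusted p = 0.452), with 0.13 without CYT 2 and 0.75 without control 2. IRX5 itself rose (1.42 ± 0.32, adjusted p = 0.0107), from 8.49, 8.84 and 6.97 to 24, 16.2 and 24.9 CPM. JPX and FTX, noncoding genes of the X inactivation centre, gave 0.04 ± 0.31 (adjusted p = 0.94) and 0.90 ± 0.41 (adjusted p = 0.134). The sign of JPX depended on the setting and was -0.04 without a filter on low counts. FTX had an adjusted p of 0.049 when libraries were paired by replicate number, at a log2 fold change of 0.86. Its value was 0.44 without CYT 2 and 1.13 without CYT 3. Of 3 lincRNAs listed as coding for small peptides (CRNDE, LINC00467 and LINC01116), 0 passed (0 at an unadjusted p under 0.05 by edgeR, 0 by DESeq2), with LINC00467 at 0.16 ± 0.29 (adjusted p = 0.709) and LINC01116 at -0.17 ± 0.29 (adjusted p = 0.688). MUC20-OT1 gave 0.53 ± 0.36 (adjusted p = 0.304).

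Length and exon number were set beside the calls. The median length implied by counts and FPKM was 1994 bases for the 53 that rose and 3883 bases for the 62 not called, and the median of the largest exon number was 1 and 3. These medians, given without a test, include the lincRNAs that entered only through CYT. With 5 CPM in control, the median of the largest exon number was 3 both for the 13 that rose and for the 56 not called, and 3 of 18 single-exon (16.7%) and 10 of 56 spliced lincRNAs (17.9%) rose. The median length was 2892 and 4335 bases. Of 54 lincRNAs with clone names 30 rose and 2 fell, and of 31 with LINC names 9 rose and 2 fell. With 5 CPM in control these were 4 rises of 24 and 2 of 23. By chromosome, 12 of the 120 lay on chromosome 2, of which 4 rose, and 10 each on chromosomes 5, 7 and 17, of which 5, 4 and 7 rose, where 44.2% of all 120 rose. Of the 34 that overlap a coding gene, 19 rose and 2 fell, and of the 86 that overlap none, 34 rose and 3 fell, whereas with 5 CPM in control 3 of 18 and 10 of 56 rose. For 15 lincRNAs at least 200 bases were at least 95% identical to a gene elsewhere, and for 9 this covered at least 50% of the longest transcript. The latter included AC012306.2, whose log2 fold change was 2.43 and whose 630 bases were 97.9% identical to AL135925.1, and the pair CU633967.1 and FP236241.1, 99.9% identical to each other.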

How the data were processed

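Libraries were made by the study from total RNA of MDA-MB-231-DR cells after mRNA separation and sequenced on an Illumina NovaSeq instrument. The authors deposited 1 table of raw read counts per gene and of FPKM values for 6 libraries. By the study's methods, low-quality, adapter and ribosomal RNA reads were removed, alignment was with Hisat2, FPKM came from Stringtie, and genes were compared with software named there as edge. Per the labels the build was hg38 and FastQC 0.12.1 was used. The program that made the counts, its strand setting and its annotation are not given in the sources used here. The 120 lincRNAs and the gene lists were chosen with earlier results of these data known.

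Counts were tested with edgeR 4.0.16 (R 4.3.3) by quasi-likelihood with TMM scaling after filterByExpr (minimum count 10), with group as the only term, and with Benjamini-Hochberg adjustment over 15572 genes. All 120 lincRNAs passed the filter. SE was taken from the log2 fold change and its F value. CPM in the text are TMM-normalised, whereas the choice of members and the shares used summed gene counts. FPKM values were used as deposited for levels between genes. The biological coefficient of variation was 37.49%. In simulated counts for 15572 genes, edgeR recovered 135 of 200 changed genes in this comparison with 3.57% false calls. These used an adjusted p under 0.05 without the fold threshold. The changes were all of the same size and balanced up and down, with far fewer genes changed than were called here. These rates are thus not those of the reported calls. Shares and ratios of summed counts, planned for an exact permutation test, are given without one because the choice of members used the same values. Intervals cover counting error only.

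Named were the 10 largest rises and up to 10 largest falls among called lincRNAs without overlap of groups (4 falls qualified), the 5 highest by CPM and by FPKM, members of the lists, and the 3 nearest the minimum on each side, of which 1 lincRNA is not reported here. Positions came from GENCODE 29 (GRCh38), where 114 of 120 loci were the same as in the table. The length implied by counts and FPKM equalled the annotated exonic length within 1 bp for 55, so the annotation of the counts may differ. Sequences came from RefSeq and GENCODE, and identity was searched with blastn 2.17.0. Libraries of the same replicate number deviated together (r = 0.188, 0.458 and 0.124 over 15572 genes), which the labels do not explain. Since control 1 with CYT 3 (0.303) and control 3 with CYT 1 (0.201) were higher, replicate 2 alone correlated best with its own number. Alternatives were DESeq2 1.42.0, upper-quartile scaling, TMM from protein-coding genes, other filters, limma 3.58.1 on log2(FPKM + 1) and log2(FPKM + 0.1), the replicate block, each library left out, and other choices of members.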

Additional observations from a re-analysis of the deposited data

How the results depend on the processing

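The number of lincRNAs that rose was 48 to 58 and the number that fell 3 to 5 under the other tests, scalings and filters, and with the replicate block, which pairs libraries by number, 56 rose and 5 fell (53 and 5 in the fit without it). The block changed no call among the named lincRNAs under the full criteria. Fewer fell with limma on log2(FPKM + 1) (3). Leaving out each library gave 40 to 52 rises, 2 to 5 falls (2 without CYT 1 or CYT 3, 3 without control 1 or control 2) and medians of 0.75 to 1.02. The median log2 fold change was 1.08 with upper-quartile scaling, 1.03 with a filter at a mean of 5 CPM and 0.58 with limma on log2(FPKM + 1). The median of all genes itself shifted to 0.16 with upper-quartile scaling, 0.10 with TMM from protein-coding genes and 0.41 without a filter, against 0.0064 in the reported fit.

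The choice of members mattered most. With a mean of 5 CPM required in control, 13 of 89 rose, 11 fell, the median was -0.04 and the difference in the share of counts was 0.0465 percentage points (0.105 for the 120, and 0.0958 to 0.111 with each library left out). With the same minimum in CYT libraries 87 of 159 rose (median 1.38), with a mean of 10 CPM 23 of 61 rose (median 0.54), and of 86 overlapping no coding gene 34 rose and 3 fell.

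Of the partners, 2 rose with limma on log2(FPKM + 1), and leaving out each library gave 1 to 3 rises (1 without control 3) and 2 to 6 falls (2 without control 1, control 3 or CYT 3). The results on single-exon divergent lincRNAs were examined after seeing the data: 20 to 22 of 26 rose with each library left out, 22 under every other fit, and 2 of 5 with the minimum set in control. Their ratio to partners, which the choice of members favours, was 3.31 to 4.07 with each library left out and the members kept, and 1.84 for the 5. The ratio for spliced divergent lincRNAs was 1.23 for those at 5 CPM in control.

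For the named lincRNAs, 363 of 392 alternative values kept direction and side of the adjusted p, 12 lost and 7 gained it, and 10 turned sign, all small and not called. The size could still vary, as for AC104109.2, with 3.26 by limma on log2(FPKM + 1) and 10.51 without control 1. CYTOR turned to 0.10 with upper-quartile scaling, 0.057 with TMM from protein-coding genes, 0.057 with the filter at 5 CPM, 0.011 without control 3 and 0.23 without CYT 2 (-0.23 to 0.23 with each library left out). Upper-quartile scaling and TMM from protein-coding genes also raised the median of all genes, to 0.16 and 0.10, so these turns are not particular to CYTOR. MIR4435-2HG turned to 0.042 without CYT 2 (-0.71 to 0.042), and JPX to -0.04 without a filter and below 0 without control 1, control 3 or CYT 2 (-0.094 to 0.20). NORAD passed the adjusted p with DESeq2 (0.0203), upper-quartile scaling (0.035), TMM from protein-coding genes (0.0396) and the filter at 5 CPM (0.0447), and without CYT 3 (0.0439). In these 5 settings its log2 fold change was over 1, so that it would be called. Without CYT 2, its highest library, the log2 fold change of NORAD was 0.61 (edgeR adjusted p = 0.098). The cause of these changes was not tested. With 3 libraries a group, changes may have been missed where a lincRNA did not pass, and no limit of detection was tested.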
